A study of Homo sapiens with 33 samples.

Results

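The genes described here are 10 members of the BCL2 family, read from the expression matrix by their gene names. They are the survival members BCL2, BCL2L1, BCL2L2 and MCL1, the effectors BAX and BAK1, and the BH3-only members BBC3, PMAIP1, BCL2L11 and BID. The matrix held 58302 genes, of which 17803 reached 100 CP20M (read counts scaled to a common library size of 20000000) in at least 1 library and were tested. All 10 members were among them, and 6 were at 100 CP20M or more in every library.

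The study compared malignant pleural mesothelioma (MPM) cell lines that stop dividing under palbociclib, an inhibitor of CDK4 and CDK6, with lines that do not. H2052, H2452, H28 and MSTO-211H were the sensitive lines, and MPP89 and MeT-5A the resistant ones. Cells grew for 9 to 10 days in medium with palbociclib at 1 µM or with its solvent, DMSO at 0.1%, and in each sensitive line a further dish was left 48 h after removal of the drug. RNA-seq was made of 14 DMSO, 14 palbociclib and 4 washout libraries, and of 1 library of MeT-5A without any treatment. DMSO and palbociclib libraries came in pairs from the same experiment, 3 for each of MSTO-211H, H28 and H2452, 2 for each of MPP89 and H2052, and 1 for MeT-5A. MPP89 carries a mutated RB1. MeT-5A is no tumour line but mesothelial cells immortalized by SV40, whose large T antigen inactivates pRb, so that neither resistant line is a model of resistance with a working pRb.

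The BCL2 family decides whether the outer mitochondrial membrane is opened during apoptosis. BAX and BAK1 form the pores that release cytochrome c, the survival members hold them in check, and the BH3-only members either occupy the survival members or act on the effectors directly. Senescent and other arrested cells often rely on survival members, which is why BH3 mimetics such as navitoclax, which binds the proteins of BCL2, BCL2L1 and BCL2L2, are used as senolytic drugs. The comparisons below ask how the transcripts of both sides stood in these lines, how they changed in long exposure to palbociclib and what was left of the change after washout.

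The libraries had been scaled to a common size, and the columns added up to between 20007662 and 20021400. The depth could be read from the spacing of low values in 23 libraries, at 12800000 to 19800000 reads. The mesothelial markers were uneven. MSLN was at 1 to 15 CP20M and CALB2 at 0 to 2 CP20M in H28, and WT1 was at 0 to 2 CP20M in MeT-5A, whereas KRT8 was at 3480 CP20M or more in every library and KRT5 at no more than 22 CP20M. Of 10 markers of other cell types, CD68 was at 123 to 1844 CP20M and so above 100 CP20M in all 33 libraries. PECAM1 reached 100 CP20M in 1 library and the others in none, and CD3E was at 0 in all 33. The summed level of these 10 markers was 174 to 1395 CP20M in the DMSO libraries and 199 to 1749 CP20M in the palbociclib libraries. Because every library has the same total, a lower value is a smaller share of its reads, and less RNA per cell, fewer cells with the transcript and more RNA of other genes cannot be told apart.

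Over the 11 pairs of sensitive lines, 4 of the 10 members were called lower under palbociclib, all of them genes that promote death. BAX fell to 0.642 of its DMSO level, BCL2L11 to 0.595, PMAIP1 to 0.594 and BBC3 to 0.555. No survival member was called in this fit, although BCL2 was in a fit of all 14 pairs, and BCL2L1 and BAK1 were higher by less than the 1.5-fold limit. A gene was called at a Benjamini-Hochberg FDR under 0.05 over all tested genes and a fold above 1.5 or below 1/1.5, in limma, where values entered as log2(CP20M + 10) and libraries were compared within experiments. With this rule 15% of all genes were called, 9.37% lower and 5.58% higher. The median log2 difference was -0.37 over the 10 members and -0.11 over all genes. A scaling by the median of ratios moved the latter to 0.04, and with it BBC3 was the only member called lower (BCL2L11 at -0.58 lay just short of the fold limit), while BAK1 was called higher at 0.62. With line means as units, BAX and BCL2L11 were called, and BBC3 (adjusted p = 0.125) and PMAIP1 (adjusted p = 0.116) were not. In MPP89 and over the 3 pairs of resistant lines no member was called.

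**Figure D1:**
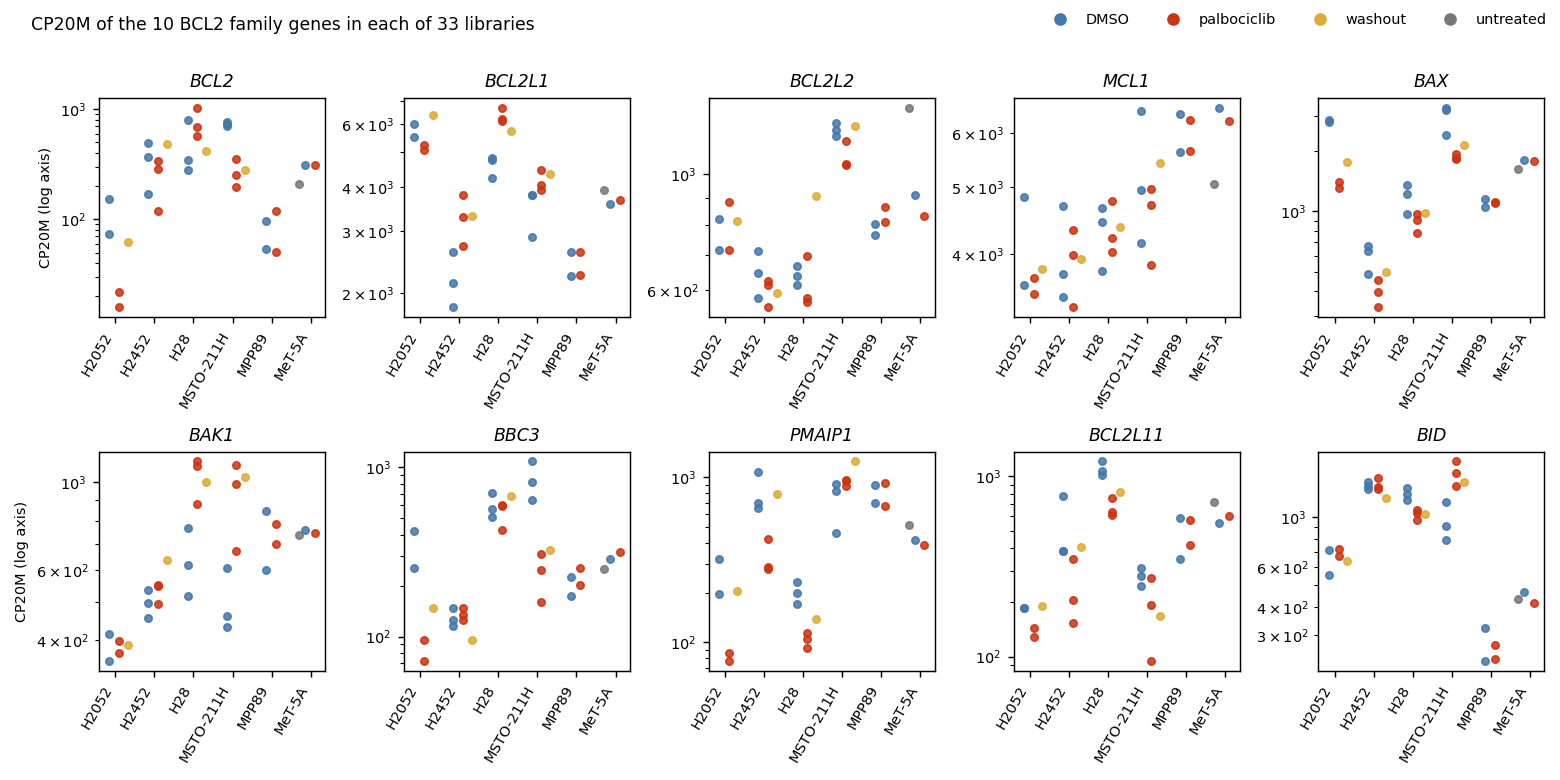
Values of the 10 genes in CP20M, on a log axis with its own range in each panel, for every library of the 6 lines. Points are single libraries, coloured by treatment. BAX lay lower under palbociclib than under DMSO in every sensitive line, and the 3 MPP89 and MeT-5A pairs lay close together.

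The upstream sequences of the 4 members called lower are shown here to let a reader see what they do and do not share. They were taken from the RefSeq promoter table of GRCh38.p14, which had entries for 8 of the 10 members, and each is the longest run of the 250 bases before the listed start that no exon of GENCODE 44 covers. Capitals mark CACGTG (an E-box) and GGGCGG (a GC box) on either strand.
BAX: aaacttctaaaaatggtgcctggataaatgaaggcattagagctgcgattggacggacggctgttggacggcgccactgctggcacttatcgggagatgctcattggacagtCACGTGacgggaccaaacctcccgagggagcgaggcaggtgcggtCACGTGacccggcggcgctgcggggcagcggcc
BCL2L11: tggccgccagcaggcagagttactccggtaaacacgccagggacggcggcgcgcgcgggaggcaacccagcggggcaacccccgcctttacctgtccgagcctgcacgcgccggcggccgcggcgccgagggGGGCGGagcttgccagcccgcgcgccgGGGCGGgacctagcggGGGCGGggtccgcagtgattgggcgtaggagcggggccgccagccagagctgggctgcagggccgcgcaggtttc
PMAIP1: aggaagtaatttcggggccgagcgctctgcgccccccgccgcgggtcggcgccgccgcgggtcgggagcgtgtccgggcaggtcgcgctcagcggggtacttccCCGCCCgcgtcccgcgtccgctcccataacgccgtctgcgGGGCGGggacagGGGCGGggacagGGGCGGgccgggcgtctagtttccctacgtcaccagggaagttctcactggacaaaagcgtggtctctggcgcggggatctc
BBC3: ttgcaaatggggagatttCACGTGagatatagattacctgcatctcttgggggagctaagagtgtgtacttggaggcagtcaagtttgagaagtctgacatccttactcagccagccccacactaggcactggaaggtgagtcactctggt

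The BAX sequence is chr19:48954625-48954814 on the plus strand, BCL2L11 is chr2:111120664-111120913 on the plus strand, PMAIP1 is chr18:59899746-59899995 on the plus strand and BBC3 is chr19:47232767-47232917 on the minus strand. The starts of BAX, BBC3 and BCL2L11 in the table lie within the genes as GENCODE draws them. The full window of 250 bases held 4 E-boxes for BAX, 1 for BBC3, and 0 for BCL2L11 and PMAIP1. Over the 34943 windows of the table, 6.32% held at least 1. The GC box was found 4 times for PMAIP1, 3 times for BCL2L11, 1 time for BAX and 0 times for BBC3, and 42.55% of all windows held it. Of the BAX matches, 2 E-boxes lie in the stretch printed, and the rest lie nearer to the start in bases that an exon covers. None of the 4 windows held an E2F site (TTTCCCGC, TTTCGCGC, TTTGCCGC or TTTGGCGC, in 2.77% of windows), a CHR element (TTTGAA, in 13.35%) or a CRE (TGACGTCA, in 1.63%). A match is no measured binding site, and no match says only that these letters are not in the window.

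Among the survival members, BCL2 (ENSG00000171791, chromosome 18 from 63123346 to 63320128 of GRCh38, minus strand) differed most between lines. It was at 152 and 73 CP20M in the DMSO libraries of H2052 and at 22 and 16 in its palbociclib libraries. MSTO-211H had 709, 768 and 736 CP20M under DMSO and 253, 354 and 195 under palbociclib. In both lines the groups did not overlap, and BCL2 fell by 2.01 (SE 0.23, limma adjusted p = 0.0387) and 1.47 (SE 0.19, adjusted p = 0.0354) on the log2 scale. At these low levels the H2052 value ranged with the pseudocount from -2.43 (1) to -1.19 (50). Its call was lost with no filter on low genes (adjusted p = 0.0631) and, narrowly, without a variance trend (adjusted p = 0.05002). H2452 had 372, 171 and 497 CP20M under DMSO and 285, 118 and 340 under palbociclib. These ranges overlapped, yet palbociclib was lower in each pair, and the log2 difference was -0.47 (SE 0.09, adjusted p = 0.029), short of the fold limit. H28 moved the other way, from 349, 799 and 281 CP20M to 688, 1027 and 567, higher in 3 of 3 pairs although the groups overlapped. The log2 difference there was 0.77 (SE 0.16, adjusted p = 0.0475), and without the block the call was lost (adjusted p = 0.274). Over the 11 pairs the lines cancelled in part (log2 -0.68, SE 0.29, adjusted p = 0.0697), and without H28 the difference was -1.23 (adjusted p = 0.00199). BCL2 was also called lower in a fit of all 14 pairs (adjusted p = 0.0462) and without pair 1 (0.0262) or pair 3 (0.0257) of H28. The test among the 4 sensitive lines gave an adjusted p of 0.000252, the lowest of the 10 members.

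BCL2L1 (ENSG00000171552, chromosome 20 from 31664452 to 31723989, minus strand), the gene of BCL-xL, was among the 3 highest of the 10 in CP20M per kb of exon in the DMSO libraries of every line. H2452 had 2135, 1830 and 2619 CP20M under DMSO and 3295, 2727 and 3804 under palbociclib, and H28 had 4244, 4751 and 4838 against 6680, 6134 and 6235. In both lines every palbociclib library was above every DMSO library. The log2 differences were 0.58 (SE 0.05, adjusted p = 0.013) and 0.46 (SE 0.09, adjusted p = 0.0419), each short of the fold limit, which BCL2L1 passed in both under the median-of-ratios scaling (0.77 and 0.59). MSTO-211H had 2885, 3787 and 3788 CP20M against 4044, 3925 and 4467, which was not called (log2 0.26, adjusted p = 0.176). H2052 had the highest DMSO level, at 5524 and 6025 CP20M, and 5264 and 5081 under palbociclib. It was lower in both pairs, by 0.16 on the log2 scale (adjusted p = 0.272), and 0.13 higher under the median-of-ratios scaling. Over the 11 pairs BCL2L1 was higher in 9, by 0.33 (SE 0.09, adjusted p = 0.00688), and the response differed among the lines (adjusted p = 0.0126), a call that 2 of 18 alternatives lost (adjusted p up to 0.0785).

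Of the exon bases of BCL2L1, 41.3% also belong to ABALON, a long non-coding RNA on the opposite strand. ABALON was listed at 942 to 3418 CP20M, at 0.436 to 0.575 of the BCL2L1 value in every library. MIR3190 and MIR3191, which lie on opposite strands within BBC3, had equal values in 29 of 33 libraries and never differed by more than 2 CP20M. The libraries were made with a kit that keeps the strand, but whether the counting used it is not given in the sources used here, so the share of BCL2L1 and ABALON reads that belongs to either gene is uncertain. BCL2L2 shares 16.8% of its exon bases with the read-through gene BCL2L2-PABPN1 and 6.5% with PPP1R3E, BCL2L11 shares 10.8% with MIR4435-2HG, MCL1 shares 5.3% with ADAMTSL4-AS1 and BAK1 shares 4.1% with GGNBP1. BCL2L2-PABPN1 was lower under palbociclib (log2 -0.47, adjusted p = 2.17e-05, short of the fold limit), a change that BCL2L2 did not show.

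MCL1 (ENSG00000143384, chromosome 1 from 150560895 to 150579738, minus strand), whose protein is short-lived and which navitoclax does not bind, was not called in any comparison of treatments. It was at 3458 to 6459 CP20M in the DMSO libraries of the sensitive lines and at 3346 to 4976 CP20M in their palbociclib libraries. The log2 difference over 11 pairs was -0.09 with a 95% interval from -0.22 to 0.04 (adjusted p = 0.219). BCL2L2 (ENSG00000129473, chromosome 14 from 23298790 to 23311751, plus strand), the gene of BCL-w, was at 578 to 1257 CP20M under DMSO and 556 to 1157 CP20M under palbociclib. Its difference was -0.08 with an interval from -0.19 to 0.03 (adjusted p = 0.19). Neither gene was called in any line, and the sign of both turned under the 2 other scalings. Changes of 1.5-fold lie outside both intervals.

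BAX (ENSG00000087088, chromosome 19 from 48954815 to 48961798, plus strand) gave the lowest adjusted p of the 10 members over the sensitive lines. The DMSO libraries of H2052 had 2786 and 2873 CP20M and the palbociclib libraries 1403 and 1314. In MSTO-211H the values were 2405, 3285 and 3224 CP20M against 1851, 1820 and 1927. The groups were apart in both lines, and BAX fell by 1.05 (SE 0.08, adjusted p = 0.0359) and 0.65 (SE 0.12, adjusted p = 0.044). The MSTO-211H call was lost in 7 of 11 alternatives, 3 of them left-out pairs (adjusted p up to 0.253), and the H2052 call in 2 of 8 (up to 0.055). H2452 had 637, 485 and 675 CP20M under DMSO and 398, 333 and 456 under palbociclib. H28 had 976, 1217 and 1354 CP20M under DMSO and 783, 973 and 908 under palbociclib. There too every palbociclib library was below every DMSO library, though the differences of -0.58 (SE 0.07, adjusted p = 0.0163) and -0.40 (SE 0.08, adjusted p = 0.0466) did not reach the fold limit. BAX was lower in 11 of 11 pairs, by 0.64 on the log2 scale (SE 0.08, adjusted p = 3.33e-05). Without H2052 the difference was -0.55 and no longer 1.5-fold, and under the median-of-ratios scaling it was -0.47 (adjusted p = 0.00022).

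The MPP89 pairs had 1150 and 1049 CP20M of BAX under DMSO and 1119 and 1105 under palbociclib, and the MeT-5A pair had 1804 and 1785. The response of the sensitive lines differed from that of the resistant lines by -0.65 (SE 0.16, adjusted p = 0.0198), a test that called 6.75% of all genes (5.62% lower, 1.13% higher) and, of the members, BAX and BCL2L11. Leaving out any 1 of the 3 resistant pairs put the adjusted p between 0.094 and 0.112. The 5 genes whose pair differences were most like those of BAX over the 14 pairs were SMARCB1 (Pearson r = 0.947), FSCN3 (0.942), PPP1R35 (0.935), ACTR5 (0.933) and IDH3B (0.926), where pairs share a line and resistant pairs lie near 0. Among the other members, BBC3 (r = 0.694) and BCL2 (r = 0.654) followed BAX most closely, and BID (r = -0.37) least.

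BAK1 (ENSG00000030110, chromosome 6 from 33572547 to 33580293, minus strand), the other pore former, did not follow BAX. H28 had 767, 618 and 518 CP20M under DMSO and 1127, 882 and 1100 under palbociclib, and MSTO-211H had 606, 432 and 460 against 990, 669 and 1103. BAK1 rose in both lines, by 0.71 (SE 0.14, adjusted p = 0.0445) and 0.85 (SE 0.16, adjusted p = 0.0451), with no overlap between the groups. Both calls were lost without the block (adjusted p = 0.0528 and 0.0594), and each was lost in 7 of 11 alternatives in all. H2052 had 414 and 355 CP20M against 397 and 371, and H2452 had 535, 456 and 495 against 552, 494 and 546. The difference over the 11 pairs was 0.45 (SE 0.12, adjusted p = 0.00728), higher in 10 pairs and short of the fold limit, and without H2452 it was 0.59 and called. The response of BAK1 differed among the sensitive lines (adjusted p = 0.0138), and kept that call under all 18 alternatives. For BAX the same test gave an adjusted p of 0.0322, and 10 of 18 alternatives lost the call (adjusted p up to 0.163).

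**Figure D2:**
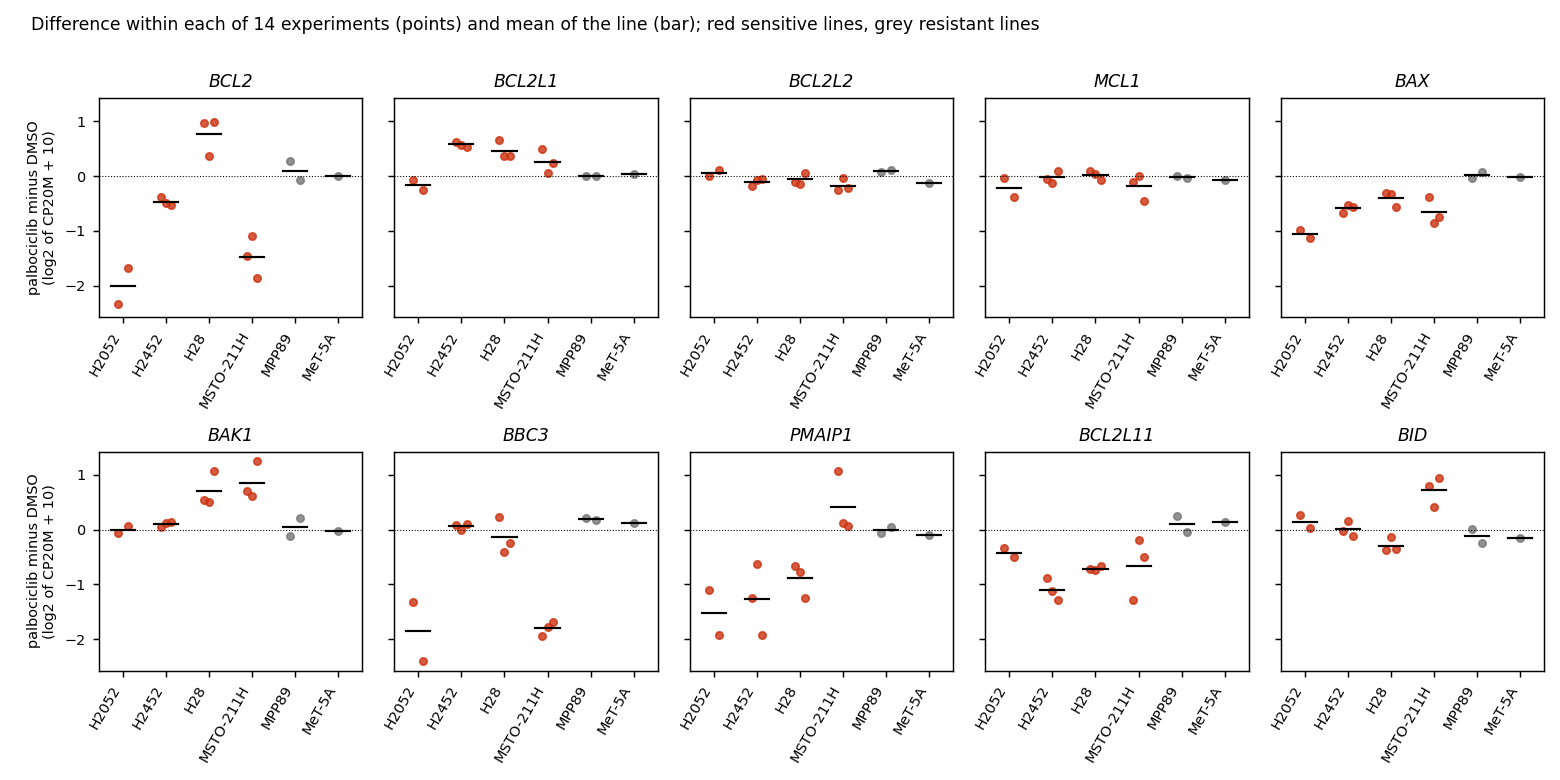
Difference between palbociclib and DMSO on the scale of log2(CP20M + 10) for each of the 14 pairs, as points, with a bar for the mean of the line. The BAX and BCL2L11 points of the 4 sensitive lines all lie below 0, BCL2 lies above 0 in H28 and below 0 in the other sensitive lines, and BBC3 is low in H2052 and MSTO-211H.

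Of the BH3-only members, BCL2L11 (ENSG00000153094, chromosome 2 from 111119378 to 111168444, plus strand), the gene of BIM, was lower in 11 of 11 pairs. H2452 had 384, 776 and 385 CP20M under DMSO and 205, 350 and 153 under palbociclib. H28 had 1014, 1065 and 1210 CP20M against 610, 633 and 761. BCL2L11 fell in both lines, by 1.09 (SE 0.11, adjusted p = 0.0151) and 0.71 (SE 0.06, adjusted p = 0.0266), and the groups were apart. The H2452 call was lost without the block (adjusted p = 0.115) and in 4 of 11 alternatives in all, the H28 call in 3 of 11. H2052 had 186 CP20M in each DMSO library and 145 and 128 under palbociclib, and MSTO-211H had 247, 311 and 279 against 95, 272 and 194. The latter groups overlapped in 1 library, and neither line passed the test (log2 -0.42, adjusted p = 0.136, and -0.66, adjusted p = 0.153). Over the 11 pairs the fall was 0.75 (SE 0.11, adjusted p = 0.000104). The test among the lines did not call it (adjusted p = 0.211), though it did without pair 1 of MSTO-211H (adjusted p = 0.018). Against the resistant lines, where BCL2L11 stood at 0.12 (SE 0.07, adjusted p = 0.722), the response differed by -0.86 (SE 0.21, adjusted p = 0.0218), and without the block by the same amount at an adjusted p of 0.131.

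PMAIP1 (ENSG00000141682, chromosome 18 from 59899996 to 59904305, plus strand), the gene of NOXA, which binds MCL1, fell in 3 of the 4 lines. H2052 had 197 and 320 CP20M under DMSO and 86 and 77 under palbociclib, H2452 had 699, 656 and 1080 against 287, 422 and 277, and H28 had 171, 199 and 232 against 105, 113 and 92. No group overlapped its control, and PMAIP1 fell by 1.52 (SE 0.27, adjusted p = 0.0492), decreased by 1.27 (SE 0.28, adjusted p = 0.04) and dropped by 0.89 (SE 0.17, adjusted p = 0.0421) in this order. The H2052 call was lost in 5 of 8 alternatives (adjusted p up to 0.0742), with a pseudocount of 1, no filter, either other scaling or no variance trend. MSTO-211H had 457, 823 and 909 CP20M under DMSO and 967, 891 and 950 under palbociclib. It was higher in 3 of 3 pairs and did not pass the test (log2 0.41, SE 0.24, adjusted p = 0.273). The difference over the 11 pairs was -0.75 (SE 0.24, adjusted p = 0.0185), and the response differed among the lines (adjusted p = 0.00992). The call over all sensitive lines was lost on leaving out H2052 (adjusted p = 0.09), H2452 (adjusted p = 0.136) or H28 (adjusted p = 0.096).

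BBC3 (ENSG00000105327, chromosome 19 from 47220822 to 47232766, minus strand), the gene of PUMA, fell in MSTO-211H and H2052 and in no other line. MSTO-211H had 643, 1084 and 825 CP20M under DMSO and 161, 309 and 249 under palbociclib, and H2052 had 254 and 420 against 96 and 72. The groups were far apart in both, with log2 differences of -1.80 (SE 0.11, adjusted p = 0.0349) and -1.85 (SE 0.34, adjusted p = 0.0491). The H2052 call was lost in 5 of 8 alternatives (adjusted p up to 0.0742), and the MSTO-211H call on leaving out any of its 3 pairs (up to 0.242). H2452 stayed at 116 to 147 CP20M in all 6 libraries, and H28 had 510, 569 and 703 against 601, 428 and 590. Neither was called (adjusted p = 0.654 and 0.528). The fall over the 11 pairs, 0.85 (SE 0.26, adjusted p = 0.0149), rested on those 2 lines. Without H2052 the difference was -0.63 (adjusted p = 0.0742), and without MSTO-211H it was -0.49 (adjusted p = 0.164). The test among lines gave an adjusted p of 0.000678.

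BID (ENSG00000015475, chromosome 22 from 17734138 to 17774770, minus strand), which links death receptors to mitochondria once caspase 8 has cut it, rose in MSTO-211H, from 789, 1168 and 913 CP20M to 1373, 1568 and 1756. All palbociclib libraries were above all DMSO libraries, and the rise was 0.72 (SE 0.13, adjusted p = 0.0426), a call lost in 5 of 11 alternatives (adjusted p up to 0.246). H28 had 1258, 1189 and 1338 CP20M under DMSO and 969, 1076 and 1045 under palbociclib, lower in 3 of 3 pairs without passing the test (log2 -0.29, adjusted p = 0.0699). Over 11 pairs the difference was 0.15 with an interval from -0.11 to 0.40 (adjusted p = 0.317). The response differed among lines (adjusted p = 0.00324).

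The calls were also counted by line. H2052 had 4 members called, against 17.7% of all genes. They were BCL2, BAX, BBC3 and PMAIP1, all lower, where 13.0% of all genes were called lower and 4.67% higher. H2452 had 2 members called, PMAIP1 and BCL2L11, against 16.8% of all genes, and both were lower (10.8% of genes lower, 6.04% higher). H28 had 4 members called, against 13.2%. BCL2 and BAK1 were higher, as were 5.89% of genes, and PMAIP1 and BCL2L11 lower, as were 7.34%. MSTO-211H had 5 members called, against 13.8%, with BAK1 and BID higher (5.90% of genes) and BCL2, BAX and BBC3 lower (7.94%). No member was called in the same direction in all 4 lines. These calls rest on 2 or 3 pairs, their adjusted p-values lie between 0.0151 and 0.0492, and leaving out any pair of H2452, H28 or MSTO-211H left 0 members called. In H28 and MSTO-211H it left 0 of all genes called. The test of a difference in response among the 4 lines called 7 of 10 members and 37.1% of all genes. Markers moved in the same lines. PECAM1, an endothelial marker that reached 100 CP20M in 1 library, was called higher in H28 (log2 0.75, SE 0.12, adjusted p = 0.0347), as was the mesothelial marker KRT19, and both PECAM1 and CD68 passed the test among the 4 lines. Of 9 mesothelial markers 3 were called higher and 2 lower in H2452, 2 higher in MSTO-211H and 1 higher in H2052. Their part in the member calls was not tested.

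The resistant lines gave no call for any gene, with 918 of 17803 genes at an unadjusted p under 0.05 in MPP89 and 1258 in both lines together, and 0 of the 10 members. The largest member difference there was that of BBC3, 0.19 on the log2 scale in MPP89 (adjusted p = 0.837) and 0.17 over both lines (adjusted p = 0.689). In MeT-5A, with 1 pair and no test, BBC3 went from 288 to 315 CP20M, PMAIP1 from 418 to 389 and BCL2L11 from 549 to 606. The library of MeT-5A without treatment had 208 CP20M of BCL2 against 311 under DMSO, and 1341 CP20M of BCL2L2 against 913. These 2 libraries differed more than the DMSO and palbociclib libraries did for both genes.

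The balance of the family was described as the log2 ratio of summed survival to summed death transcripts, each in CP20M per kb of exon so that genes of different length could be added. The balance was 0.37 and 0.46 in the DMSO libraries of H2052, and 1.03 and 1.12 under palbociclib. H2452 had 0.03, 0.21 and -0.01 against 0.69, 0.60 and 0.89, and H28 had 0.34, 0.52 and 0.37 against 0.83, 0.91 and 0.72. In these 3 lines every palbociclib library was above every DMSO library. MSTO-211H was the only line with more death than survival transcripts under DMSO in all libraries, at -0.13, -0.31 and -0.08, and had -0.12, 0.07 and -0.09 under palbociclib. Between paired libraries the mean shift of H2052 was 0.66 ± 0.00203 (SD, n = 2). That of H2452 was 0.65 ± 0.26 and that of H28 was 0.41 ± 0.07 (SD, n = 3 each). MSTO-211H shifted by 0.13 ± 0.22 (SD, n = 3), less than its spread. MPP89 shifted by -0.02 ± 0.10 (SD, n = 2) and MeT-5A by -0.01. The ratio is a description of the 10 chosen genes and carries no test. It includes BCL2L1, part of whose reads may belong to ABALON, and it was not recomputed without BCL2L1. The same limit holds for the share of BCL2L1 in the survival sum.

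**Figure D3:**
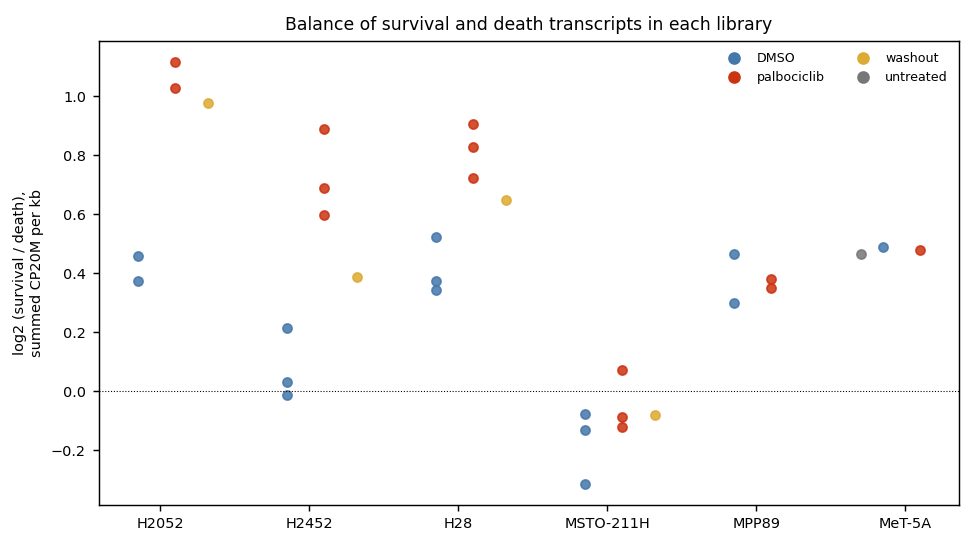
Balance of the 4 survival and 6 death transcripts in each library, as the log2 ratio of their summed CP20M per kb, where values above 0 mean more survival transcript. Points are libraries, coloured by treatment, and the palbociclib points of H2052, H2452 and H28 lie above 0 and above all DMSO points of the same line.

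The 2 sides took unlike parts in the shift of the lines. In H2052 the survival sum was 2054 and 2389 CP20M per kb under DMSO and 1965 and 1987 under palbociclib, while the death sum went from 1587 and 1738 to 965 and 916. BAX made up 67.8% and 63.9% of that death sum under DMSO. In H2452 both sides moved in every pair, the survival sum from 1241, 1339 and 1384 to 1474, 1481 and 1689 CP20M per kb and the death sum from 1215, 1155 and 1396 to 914, 979 and 912. In H28 the death sum was lower in 3 of 3 pairs, going from 1397, 1446 and 1567 CP20M per kb to 1359, 1298 and 1425, and the survival sum went from 1772, 2077 and 2028 to 2411, 2431 and 2352. Within the H28 death sum the effector part rose in 3 of 3 pairs and the BH3-only part fell in 3 of 3. With BAX and BAK1 alone on the death side the H28 shift was 0.17 ± 0.11 (SD, n = 3). It was 0.70 ± 0.05 (SD, n = 3) with the BH3-only members alone. In H28 BCL2L1 made up 54.5% to 57.1% of the survival sum under DMSO and 60.1% to 66.0% under palbociclib. In MSTO-211H the effector sum fell in 3 of 3 pairs. The BH3-only sum there went both ways, from 626, 1027 and 923 CP20M per kb to 818, 900 and 939. With BAX and BAK1 alone on the death side the MSTO-211H shift was 0.27 ± 0.24 (SD, n = 3). With the BH3-only members alone it was -0.08 ± 0.24, less than its spread. With each member weighted equally, as a mean of log2 values, the shift of MSTO-211H was -0.20 ± 0.24 and that of H2052 was 0.20 ± 0.32, because BCL2, which is low in CP20M per kb, then counts as much as BCL2L1.

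Washout was tested over the 4 lines with 1 experiment each. By the labels, the DMSO and palbociclib libraries of these experiments are of day 10, and none was kept for the further 48 h. Removal of the drug and the added time in culture therefore cannot be told apart, in either comparison of washout. None of the 10 members was called between washout and palbociclib in limma, where 250 genes (1.40%) were called, all of them higher after washout. PMAIP1 came nearest. H2052 went from 77 CP20M under palbociclib to 205 after washout, and H2452 from 277 to 791. The steps of H28, from 92 to 138, and of MSTO-211H, from 950 to 1251, were smaller. It was thus higher in 4 of 4 lines, by 0.93 on the log2 scale (SE 0.29, unadjusted p = 0.00991, adjusted p = 0.188), and it was the only member at an unadjusted p under 0.05. BAX was higher in 4 of 4 lines by a mean of 0.21 (SE 0.10, adjusted p = 0.437), and BID lower in 4 of 4 by 0.16 (SE 0.18, adjusted p = 0.798).

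Against DMSO, 0 of the 10 members were called after washout, against 5.76% of all genes (2.95% lower, 2.81% higher). Its washout libraries are those of the comparison with palbociclib, and its DMSO libraries also serve as controls for palbociclib. BAX remained below DMSO in 4 of 4 lines, with 1765 against 2873 CP20M for H2052 and 2146 against 3224 for MSTO-211H. H2452 had 500 against 675, and H28 had 983 against 1354. Its log2 difference was -0.54 (SE 0.10, adjusted p = 0.0128), which passed the FDR and not the fold limit. BAK1 was above DMSO in 4 of 4 lines, at 1001 against 518 CP20M in H28 and 1030 against 460 in MSTO-211H, with a mean of 0.64 (SE 0.20, adjusted p = 0.0647). Under the median-of-ratios and upper-quartile scalings BAK1 was called, at 0.73 and 0.70. BBC3 was below DMSO in 4 of 4 lines by 0.77 (SE 0.35, adjusted p = 0.177).

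BCL2L11 and BCL2 went separate ways by line. BCL2L11 was at 408 CP20M after washout in H2452 against 385 under DMSO and 153 under palbociclib, but at 168 in MSTO-211H against 279 and 194. BCL2 was at 62 CP20M in H2052 against 73 under DMSO and 16 under palbociclib, and at 488 in H2452 against 497 and 340. In MSTO-211H it was at 278 CP20M against 736 under DMSO and 195 under palbociclib, a step of 0.49 on the log2 scale from palbociclib beside 0.51 in H2452, and in H28 it was at 420 against 281 under DMSO and 567 under palbociclib. After washout H2052 had a balance of 0.98, H28 of 0.65, H2452 of 0.39 and MSTO-211H of -0.08. In all 4 lines it lay between the DMSO and the palbociclib library of the same experiment, nearer to palbociclib in H2052 and H28, and in MSTO-211H the 3 libraries were between -0.09 and -0.08.

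**Figure D4:**
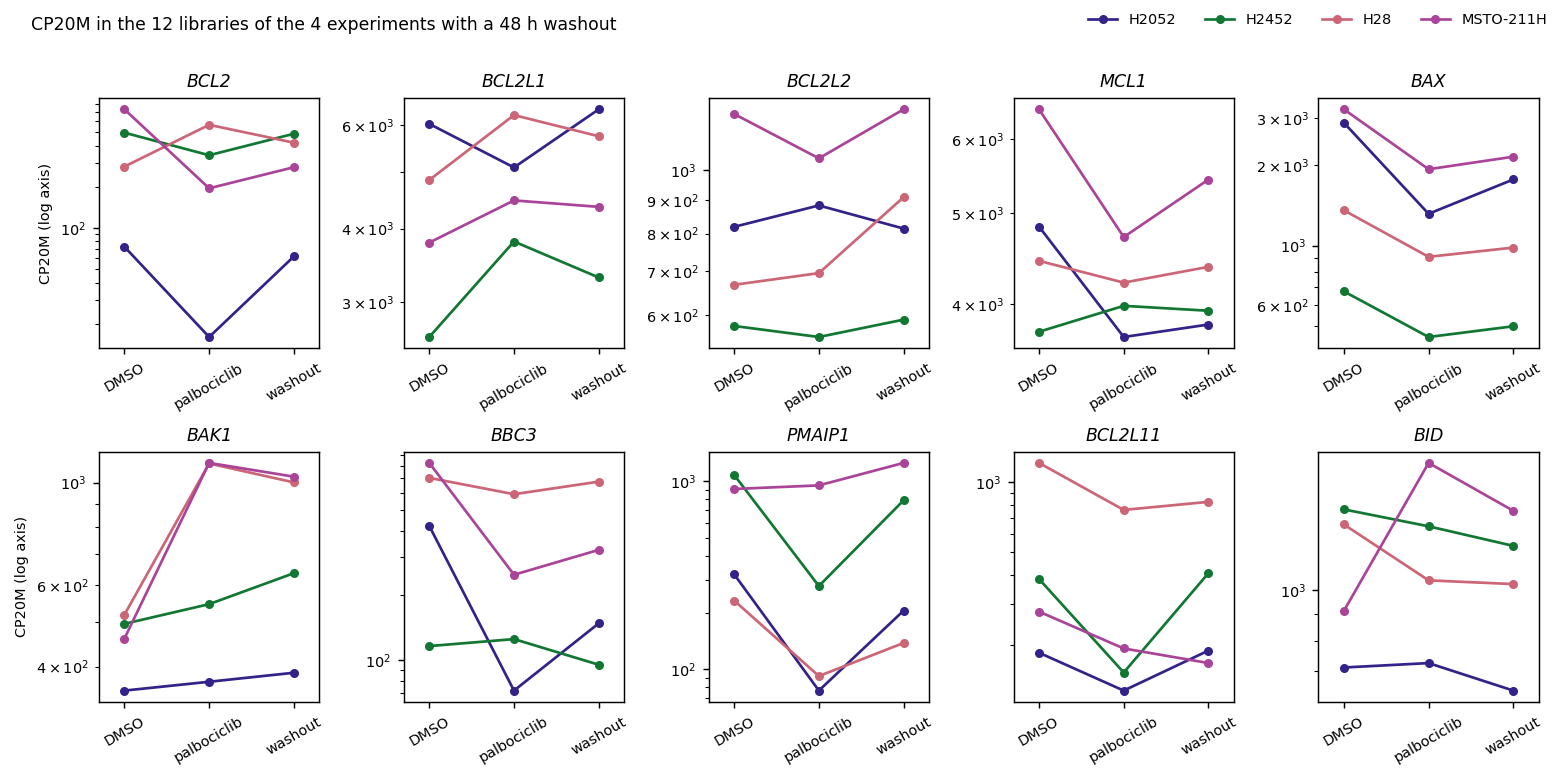
CP20M of the 10 genes, on a log axis with its own range in each panel, in the DMSO, palbociclib and washout library of 1 experiment of each sensitive line. Lines join libraries of the same cell line. The PMAIP1 and BAX lines go up from palbociclib to washout in all 4 cell lines, and BAX ends below its DMSO value in each.

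Without palbociclib, the lines differed widely in the same genes. All 10 members passed the test of a difference between lines in the 14 DMSO libraries, as did 95.6% of all genes. Of the 15 contrasts between 2 lines, BAX was called in 13, BBC3, BCL2L11 and BID in 10 each, BCL2 and BCL2L1 in 8, PMAIP1 in 7, BCL2L2 in 4, BAK1 in 3 and MCL1 in 2. Members called for H2052 numbered 7 against H2452 (49.1% of all genes), 6 against H28 (55.7% of all genes), 5 against MSTO-211H (46.8% of all genes), 6 against MPP89 (45.4% of all genes) and 4 against MeT-5A (46.9% of all genes). Those for H2452 numbered 5 against H28 (52.6% of all genes), 6 against MSTO-211H (50.2% of all genes), 4 against MPP89 (52.3% of all genes) and 5 against MeT-5A (50.3% of all genes). For H28 there were 4 against MSTO-211H (52.3% of all genes), 6 against MPP89 (52.6% of all genes) and 5 against MeT-5A (48.4% of all genes). For MSTO-211H the count was 5 against MPP89 (48.2% of all genes) and 4 against MeT-5A (47.1% of all genes). Between the resistant lines, MPP89 had 3 against MeT-5A (34.0% of all genes). The counts ran from 3 to 7 of 10, beside 34.0% to 55.7% of all genes. MeT-5A entered with 1 library and was assumed to vary like the other lines.

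Per kb of exon, BCL2L1 was the highest survival member in H2052, at 1376 ± 84.4 CP20M per kb (SD, n = 2), and in H28, at 1099 ± 76.4 (SD, n = 3). MCL1 was above it in MPP89, at 968 ± 87.8 against 578 ± 62.5 (SD, n = 2), and in MeT-5A, at 1049 against 855. In MSTO-211H the pair stood at 834 ± 188 and 831 ± 124 (SD, n = 3), within their spread. In H2452 the means, 637 ± 105 and 523 ± 94.8 (SD, n = 3), were further apart than either SD. In DMSO library 3 of H2452, however, BCL2L1 had the larger share of the survival sum (45.1% against 43.4%). BCL2 was the lowest survival member in all 6 lines, at 58.5 ± 2.34 CP20M per kb in MSTO-211H (SD, n = 3) and 5.99 ± 2.41 in MPP89 (SD, n = 2), a 9.03-fold span on the log2(CP20M + 10) scale. No neighbours in that order of lines differed in the test. The BCL2L1 levels per kb carry the limit from ABALON given above.

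On the death side, BAX was highest in MSTO-211H, at 1149 ± 190 CP20M per kb (SD, n = 3), and H2052, at 1094 ± 23.8 (SD, n = 2), which did not differ. MeT-5A followed at 697, then H28 at 457 ± 74.0 (SD, n = 3) and MPP89 at 425 ± 27.6 (SD, n = 2), which did not differ from each other, and H2452 was lowest at 232 ± 38.9 (SD, n = 3). Each of the other steps in that order was called. BCL2L11 was highest in H28, at 163 ± 15.1 CP20M per kb (SD, n = 3), a step that was called against MeT-5A at 81.4. The other neighbours of BCL2L11 did not differ, down to H2052 at 27.6 in both libraries. BBC3 was highest in MSTO-211H, at 267 ± 69.6 (SD, n = 3), and lowest in H2452, at 40.7 ± 4.97 (SD, n = 3). MSTO-211H did not differ from H28 in BBC3, nor H2452 from MPP89. PMAIP1 was highest in H2452, at 371 ± 107 (SD, n = 3), and lowest in H28, at 91.8 ± 14 (SD, n = 3). No neighbours in the PMAIP1 order differed, and MPP89 stood at 365 ± 66.0 (SD, n = 2).

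BID was lower in both resistant lines than in any sensitive line under DMSO. It was at 232 and 324 CP20M in MPP89 and 467 in MeT-5A, below all 11 libraries of the sensitive lines, which ranged from 556 to 1430. The difference of the line means was -1.47 on the log2 scale. MCL1 (0.52) and BAK1 (0.57) were higher in both resistant lines than in any sensitive line by line means, though single libraries overlapped. Line means did not overlap for these 3 members, and for 19.8% of all genes. The share of all genes whose single libraries lay apart is not given here, so the BID library ranges are a description only. For each of them the exact permutation test (two-sided) over 6 lines gave p = 0.0667, the smallest it can give.

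The rest of the pathway was read from lists of its other genes, whose counts stand beside the 15% of all genes called in the sensitive lines (9.37% lower, 5.58% higher, median log2 difference -0.11). None of these lists had a larger share of its tested genes called than 2 of 11. Of 11 other BCL2 family genes 7 were tested, and only BMF, a BH3-only gene, was called in the sensitive lines. It fell by 1.33 (SE 0.36, adjusted p = 0.00823). BCL2A1, a further survival gene (log2 0.55, adjusted p = 0.173), and BAD, a BH3-only gene (0.02, adjusted p = 0.855), were not called. The median log2 difference over the 7 genes was 0.02. Among 10 genes of the apoptosome and the caspases, DFFB, the nuclease that cuts DNA in apoptosis, fell by 0.61 (SE 0.09, adjusted p = 8.92e-05), 0 rose and the median was -0.13.

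Of 8 inhibitors of apoptosis and their antagonists, BIRC5 fell by 2.93 (SE 0.36, adjusted p = 3.06e-05) and was the only gene of the apoptosis lists called in washout against palbociclib, where it rose by 2.85 (SE 0.54, adjusted p = 0.0369). BIRC5, the gene of survivin, also serves in cell division. XIAP, which blocks caspases, stood at 0.05 (adjusted p = 0.459). In the death receptor pathway 1 of 13 genes was called. That was CFLAR, an inhibitor of caspase 8, which rose by 0.75 (SE 0.10, adjusted p = 7.96e-05).

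Among 15 targets of other senolytic drugs 2 were called, both higher. GPNMB, a surface glycoprotein, rose by 1.42 (SE 0.29, adjusted p = 0.00124) and EFNB1, a ligand of Eph receptors, by 0.68 (SE 0.12, adjusted p = 0.000597), and the median of the 15 was -0.09. After washout both were still called higher than DMSO, at 1.95 (SE 0.42, adjusted p = 0.0211) and 0.77 (SE 0.21, adjusted p = 0.0453). Of 11 genes listed as regulators of BH3-only genes or their pathways, TP73 fell by 1.11 (SE 0.29, adjusted p = 0.00612) and E2F1 by 1.02 (SE 0.30, adjusted p = 0.0123). CDKN1A, the gene of p21, stood at -0.01 (SE 0.13, adjusted p = 0.953). The median over the 11 was -0.08. CALB2 was the only mesothelial marker called over the 11 pairs together, higher by 1.69 (SE 0.41, adjusted p = 0.00409).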

How the data were processed

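RNA-seq was made of 33 libraries of 6 established cell lines. Per the labels and the study's methods, the authors trimmed reads with Trimmomatic 0.36, aligned them to GRCh38 with STAR 2.5.3 and counted them per gene with HTSeq 0.9.1. The deposited values are counts scaled to 20000000 reads per library and rounded up to whole numbers, treated here as a score and not as raw counts, so that no count model was used. The authors also used DESeq2, which was not run here. No column was left out (0 not used).

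From these values log2(CP20M + 10) was tested with limma 3.58.1 (R 4.3.3, trended variance) over the 17803 genes with at least 100 CP20M in 1 or more of the libraries, with Benjamini-Hochberg adjustment over all of them. The experiment was a block, and the line was the block for washout. Same-numbered DMSO and palbociclib libraries come from the same experiment per the labels, and their deviations correlated at r = 0.18 to 0.78. Genes were called at an FDR under 0.05 and a 1.5-fold change. All 10 members and, of the other lists, the largest called changes and a few genes of defining role were named, with the 5 genes most like the member of lowest adjusted p. The members and lists were chosen with earlier results of these data known. Positions and exon lengths are from GENCODE 44 on GRCh38. The scripts were tested on simulated data. Figures were drawn with matplotlib 3.10.9 in Python 3.11.15. Alternatives were other pseudocounts, filters, scalings and variance models, no block, line means, and leaving out each pair or line, the last chosen after the data were seen. P-values cover the spread between these experiments in these lines. The depth was at most 1.57 CP20M per read where it could be estimated. For 1 gene of the other lists no result is reported here.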

Additional observations from a re-analysis of the deposited data

Results flagged for a closer look

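The response to palbociclib differed between sensitive and resistant lines for BAX (adjusted p = 0.0198) and BCL2L11 (adjusted p = 0.0218), by limma's interaction term over the 14 pairs. Each call was lost in 5 of 22 alternatives, with an adjusted p up to 0.112 for BAX and 0.131 for BCL2L11. BAX was lower in 11 of 11 sensitive pairs and in 2 of 3 resistant pairs, and BCL2L11 in 11 of 11 and 1 of 3.

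Among the 4 sensitive lines the response differed, by limma's F test, for BCL2 (adjusted p = 0.000252), BBC3 (0.000678), BID (0.00324), PMAIP1 (0.00992), BCL2L1 (0.0126), BAK1 (0.0138) and BAX (0.0322). BCL2, BBC3, PMAIP1, BCL2L1 and BID had lines on either side of 0, and BAX was below 0 in all 4 lines. BAX lost this call in 10 of 18 alternatives (adjusted p up to 0.163) and BCL2L1 in 2 (up to 0.0785), and the 5 others kept it in all 18.

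For 2 differences after washout, 1 of the 4 lines stood apart from the other 3. BAX in H2052 was 0.423 higher on the log2 scale after washout than under palbociclib. BCL2L2 in H28 was 0.439 higher after washout than under DMSO. The limit was Dixon's 95% critical value, which chance passes in about 1 in 20 groups, and 20 groups of 4 lines were examined.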

How the results depend on the processing

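Of the values of single members recomputed under other settings, 1397 kept their direction and their side of the threshold, 101 lost a call, 13 gained one and 49 changed sign, and the cause was not tested. In the sensitive lines the members called lower went from 4 to 1 under median-of-ratios scaling (with 1 called higher), 2 with line means as units and 1 without H2052, and 1 was called higher without H2452. In H2052 the 4 called lower became 2 with a pseudocount of 1, with median-of-ratios or upper-quartile scaling, and 0 with no filter or without a variance trend. In H2452 no filter left 1, leaving out a pair left 0, and either scaling called 1 higher. In H28 the 2 called higher became 0 with a pseudocount of 1, no filter or no trend, and leaving out a pair left 0 in either direction. In MSTO-211H they became 1 with a pseudocount of 1 and 0 with no filter or no trend, and leaving out a pair left 0 in either direction. The 2 members whose response differed from the resistant lines became 0 under median-of-ratios scaling, 1 under upper-quartile scaling and 0 without any 1 of the resistant pairs. After washout against DMSO, 1 member was called higher under either scaling.

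Without the replicate block that pairs the libraries, 1 member was called lower in H2452, 0 were called higher in H28, 1 was called higher in MSTO-211H and 1 differed from the resistant lines. The pairing moved no other member count by over 1.5 times. Without this block 0 of all genes were called after washout, against 250 (palbociclib) and 1026 (DMSO) with it.

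The changes of sign were in values that were not called. Under median-of-ratios scaling, the sign changed for BCL2L2 (0.089) and MCL1 (0.083) in the sensitive lines, for BCL2L1 (0.13) and MCL1 (0.073) in H2052, for BCL2L2 (0.080) and MCL1 (0.17) in H2452. Under median-of-ratios scaling, the sign changed for BCL2L2 (0.061) in H28, for BCL2L1 (-0.011) in MPP89, for BCL2L1 (-0.0029) and BAX (-0.011) in the resistant lines. Under median-of-ratios scaling, the sign changed for BCL2L2 (0.086) and MCL1 (0.13) for the response against the resistant lines, for MCL1 (-0.051) and BAK1 (-0.11) from palbociclib to washout, for BID (0.064) from DMSO to washout. Under median-of-ratios scaling, the sign changed for BCL2L2 (-0.025) between the classes of lines at baseline. Under upper-quartile scaling, the sign changed for BCL2L2 (0.032) and MCL1 (0.025) in the sensitive lines, for BCL2L1 (0.047) in H2052, for BCL2L2 (0.036) and MCL1 (0.12) in H2452. Under upper-quartile scaling, the sign changed for BCL2L2 (0.016) in H28, for BAX (-0.0021) in the resistant lines, for BCL2L2 (0.020) and MCL1 (0.064) for the response against the resistant lines. Under upper-quartile scaling, the sign changed for MCL1 (-0.014) and BAK1 (-0.073) from palbociclib to washout, for BID (0.030) from DMSO to washout. Without the MSTO-211H line, the sign changed for BID (-0.067) in the sensitive lines. With all DMSO libraries of the line, the sign changed for MCL1 (0.0038), PMAIP1 (0.033) and BID (0.037) from DMSO to washout.

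On leaving out each pair or line in turn, values that crossed 0 ranged as follows. In H2452, the log2 difference went for MCL1 from -0.083 to 0.022 and BID from -0.061 to 0.073. In H28, the log2 difference went for MCL1 from -0.021 to 0.065. In the resistant lines, the log2 difference went for BCL2 from -0.030 to 0.14, BCL2L2 from -0.026 to 0.096, BAX from -0.027 to 0.030 and BAK1 from -0.066 to 0.096. From palbociclib to washout, the log2 difference went for BAK1 from -0.057 to 0.061 and BCL2L1 from -0.12 to 0.057. From DMSO to washout, the log2 difference went for BID from -0.25 to 0.086 and BCL2 from -0.53 to 0.11.

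Over all genes, the 2663 called in the sensitive lines became 1687 with a pseudocount of 50. The 3143 of H2052 became 1185 with a pseudocount of 1, 284 with no filter and 0 without a variance trend, and the 2464 of MSTO-211H became 994 with no filter. In MPP89, 4 were called with the filter set within its own libraries. Leaving out a pair gave 0 to 1577 called in H2452 against 2993, 0 against 2354 in H28 and 0 in MSTO-211H. For the response against the resistant lines it gave 172 to 234 against 1202. Washout against palbociclib gave 150 under median-of-ratios scaling and 0 to 104 on leaving out a line, against 250. Washout against DMSO gave 232 to 645 without H2052, H2452 or MSTO-211H, against 1026. H2052 and MPP89 have 2 pairs each, and leaving out 1 leaves no residual degrees of freedom. Values near 10 CP20M, such as BCL2 in H2052, are few reads, and their folds are the ones that the pseudocount shrinks most.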

Other observations

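Against DMSO, where 2.95% of all genes were called lower and 2.81% higher after washout, the washout libraries had 1 of the 11 genes listed as regulators called, ATF4, a transcription factor of the stress response, which fell by 0.77 on the log2 scale (SE 0.21, limma adjusted p = 0.0464). It was named after its value was seen. Of 9 mesothelial markers tested, CALB2 rose by 1.61 (SE 0.44, adjusted p = 0.0434) and KRT7 by 0.80 (SE 0.21, adjusted p = 0.0402). None of the 7 other BCL2 family genes, the 10 genes of the apoptosome and caspases, the 8 inhibitors of apoptosis and the 13 death receptor genes were called there, with medians of 0.02, -0.06, -0.15 and 0.23 against -0.05 over all genes.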
